A study of Mus musculus with 18 samples.

Results

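The genes described here make up the entry and export machinery of the endoplasmic reticulum (ER): the signal recognition particle (SRP) and its receptor, the Sec61 translocon with Sec62 and Sec63, the translocon-associated protein (TRAP) complex, signal peptidase, oligosaccharyltransferase, the COPII coat, cargo receptors and KDEL receptors. They were chosen by symbol, from a list of 43 genes, and the question put to them was whether this machinery follows the ER chaperones. The panel held 40 of the 43 (Srp9, Srprb and Sec61g had no row of that symbol), among 23930 genes in all. All 40 passed the filter on low values (at least 1 CPM in at least 3 libraries), as did 11720 genes of the panel. The least covered of the 40 in any library was Tusc3, with 31 reads, and the median over genes and libraries was 685 reads.

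Secretory and membrane proteins are captured at the ribosome by SRP, threaded through the Sec61 channel, cut by signal peptidase and given N-glycans by oligosaccharyltransferase while they fold. Folded cargo leaves in COPII vesicles, built by the GTPase Sar1, the inner coat Sec23 and Sec24 and the outer cage Sec13 and Sec31, and escaped chaperones are brought back by KDEL receptors. Hepatocytes secrete most plasma proteins, so the liver relies on this route, and the unfolded protein response, through the transcription factors ATF6 and XBP1, is known to induce ER chaperones and parts of this machinery.

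Liver RNA was measured in 18 libraries of Yap fl/fl mice, 3 in each of 6 groups. At 8 weeks of age the mice received AAV-TBG-GFP (control), AAV-TBG-Cre (Yap KO, called knockout below) or AAV-TBG-YAP-P2A-EGFP (YAP OE, called overexpression), all under the hepatocyte promoter TBG, so that other liver cells kept their floxed Yap. The dose was 0.5 for the Cre virus and 2 for the other viruses, in the same large multiple of genome copies per mouse. Knockout thus differed in dose too, both from control and from overexpression. After 2 weeks all mice were put on liquid diet, with 5 days of acclimation and then 4 weeks of Lieber–DeCarli ethanol diet or its control (pair-fed). Ethanol-fed mice ended with a gavage of ethanol (5 g/kg, 33% v/v), the others with maltose-dextrin, and all were killed 9 hours later. Neither sex nor the separateness of the animals is stated, so p-values measure the spread between these libraries, which may be in part technical.

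Promoters give a first view of how the machinery and the chaperones differ in sequence. A promoter of 300 bases (250 before and 50 after the start site, RefSeq, GRCm38.p6) was listed for 31 of the 40 genes and for 13 of 15 ER chaperones, and both strands were searched. The ER stress response element, CCAAT followed after 9 bases of any kind by CCACG and bound by ATF6 with NF-Y, was found in 0 of 31 machinery genes and in 7 of 13 chaperones (Hspa5, Hsp90b1, Calr, Canx, Pdia6, Dnajc3 and Creld2), against 0.137% of all 27025 genes with a promoter. The related element ERSE-II, ATTGG, any 1 base and CCACG, was in 0 of 31, in 1 of 13 (Dnajb11) and in 0.0444% of all. The core TGACGTGG of the unfolded protein response element, bound by XBP1 and ATF6, was in 2 of 31 machinery genes (Sec23a and Sec24d, 6.45%), in 0 of 13 chaperones and in 0.714% of all. The short CCACG, which these 3 motifs contain on one strand, was in 21 of 31 (67.7%), in 12 of 13 and in 35.5% of all, or 51.3% of the genes kept here. The TEAD motif GGAATG was in 5 of 31 (Srp14, Sec62, Rpn2, Stt3b and Kdelr1, 16.1%), in 2 of 13 and in 16.6% of all. The promoters below show the full element in a pair of chaperones, the core in both COPII genes that hold it, and that of Magt1, the 1 gene of the 40 called for overexpression against control on ethanol, with the first 3 motifs in capitals.
Hspa5 (chr2:34771840-34772139, + strand): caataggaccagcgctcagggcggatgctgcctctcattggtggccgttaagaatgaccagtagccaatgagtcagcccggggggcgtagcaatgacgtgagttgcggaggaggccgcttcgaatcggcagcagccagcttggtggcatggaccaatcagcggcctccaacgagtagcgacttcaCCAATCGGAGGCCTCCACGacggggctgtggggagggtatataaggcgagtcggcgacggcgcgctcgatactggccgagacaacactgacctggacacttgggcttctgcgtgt
Creld2 (chr15:88819396-88819695, + strand): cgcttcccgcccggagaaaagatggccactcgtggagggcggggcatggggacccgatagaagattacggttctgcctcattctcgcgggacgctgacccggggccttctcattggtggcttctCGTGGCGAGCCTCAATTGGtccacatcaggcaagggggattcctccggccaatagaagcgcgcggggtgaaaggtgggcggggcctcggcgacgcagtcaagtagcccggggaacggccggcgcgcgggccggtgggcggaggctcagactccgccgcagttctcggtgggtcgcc
Sec24d (chr3:123267246-123267545, + strand): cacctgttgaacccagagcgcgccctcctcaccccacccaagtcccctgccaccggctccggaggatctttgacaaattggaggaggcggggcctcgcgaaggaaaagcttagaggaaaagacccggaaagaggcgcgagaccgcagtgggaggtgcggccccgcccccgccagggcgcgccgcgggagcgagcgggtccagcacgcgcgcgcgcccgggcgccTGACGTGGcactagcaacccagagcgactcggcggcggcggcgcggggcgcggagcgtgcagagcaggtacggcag
Sec23a (chr12:59011968-59012267, - strand): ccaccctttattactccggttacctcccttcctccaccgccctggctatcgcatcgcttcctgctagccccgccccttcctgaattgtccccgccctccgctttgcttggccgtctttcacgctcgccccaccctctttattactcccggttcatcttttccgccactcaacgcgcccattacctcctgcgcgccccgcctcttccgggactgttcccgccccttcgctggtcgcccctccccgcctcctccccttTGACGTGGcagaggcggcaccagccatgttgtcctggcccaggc
Magt1 (chrX:106011753-106012052, - strand): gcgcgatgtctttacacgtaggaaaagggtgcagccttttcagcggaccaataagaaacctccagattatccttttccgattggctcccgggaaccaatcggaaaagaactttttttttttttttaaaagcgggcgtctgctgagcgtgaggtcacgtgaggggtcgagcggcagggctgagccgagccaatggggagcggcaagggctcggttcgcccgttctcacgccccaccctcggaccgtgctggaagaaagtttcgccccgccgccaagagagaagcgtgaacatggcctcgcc
The element begins at base 186 of the window in Hspa5 and at base 125 in Creld2, where it lies on the opposite strand. The core begins at base 225 in Sec24d, before the start site, and at base 257 in Sec23a, after it. The Magt1 window has none of these motifs and no CCACG. A match is a description of letters in these windows and not evidence of binding.

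A library held 4.68 to 5.81 M reads, and 3 reads, the limit that a count of 0 allows, came to 0.517 to 0.641 CPM by counting error alone. Levels are in CPM (the reads of a gene scaled to the library total), and since each gene was read by 1 amplicon of its own, levels of different genes are not compared. Changes are differences in mean log2(CPM + 1) ± SE from 1 limma fit over all 18 libraries, and a gene was called at an adjusted p (Benjamini-Hochberg over 11720 genes) under 0.05. Yap1 was at 3.34 to 15.1 CPM in knockout and at 51.5 to 66.6 CPM in control libraries. It was at 106 to 214 CPM in overexpression libraries other than pair-fed replicate 1, whose 57.6 CPM lay within the controls. Pair-fed control replicates 2 and 3 and all 3 pair-fed knockout libraries had Xist at 348 to 423 CPM, and the other 13 had Ddx3y, from the Y chromosome, at 54.0 to 129 CPM. Ethanol-fed groups were therefore alike in these genes, while in knockout mice diet and sex chromosome genes cannot be told apart. In control mice only pair-fed replicate 1 had Ddx3y as the ethanol-fed libraries did. A term for these genes, used as an alternative below, could therefore be estimated only from pair-fed control replicate 1 against replicates 2 and 3. Where the groups compared differ in these genes, values with that term lean on this 1 library. A call lost or kept with it then does not tell these genes from diet or genotype. Summed hepatocyte markers were at 43433 to 88030 CPM. Of 5 markers of pancreatic acinar cells, which are rich in this machinery, Prss2, Cpa1 and Pnlip were at 0 in all 18 libraries. The others, Cela1 and Cela2a, were at 15.4 to 48.3 CPM and at 0 to 3.56 CPM. In whole liver, fewer cells of a type and less RNA per cell cannot be told apart.

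Overexpression of YAP under ethanol went with higher levels of most of the machinery, with a smaller median than that of the chaperones. Among the 40 genes the median change from ethanol-fed control to ethanol-fed overexpression libraries was 0.42, or 1.34-fold, and 37 were above 0, against a median of -0.00 and 50% above 0 over all genes. The median of 15 ER chaperones was 1.13, with all 15 above 0. Only Magt1 of the 40 was called, against 0.102% of all genes called in either direction and 0.0683% called higher. At an unadjusted p under 0.05, 20 of 40 were higher and 0 lower, against 4.45% and 4.39% of all genes. All 3 overexpression libraries lay above all 3 controls for 22 of the 40, or 55%, where 7.43% of all genes did so. No gene of the 40 was separated the other way, where 7.54% of all genes were. Summed hepatocyte markers were lower in the overexpression libraries without overlap (43433 to 50784 CPM against 55587 to 71937 CPM in the controls), with 1 of the 8 apart on its own. Values are shares of the library total, and the part of this difference in the machinery was not tested.

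**Figure D1:**
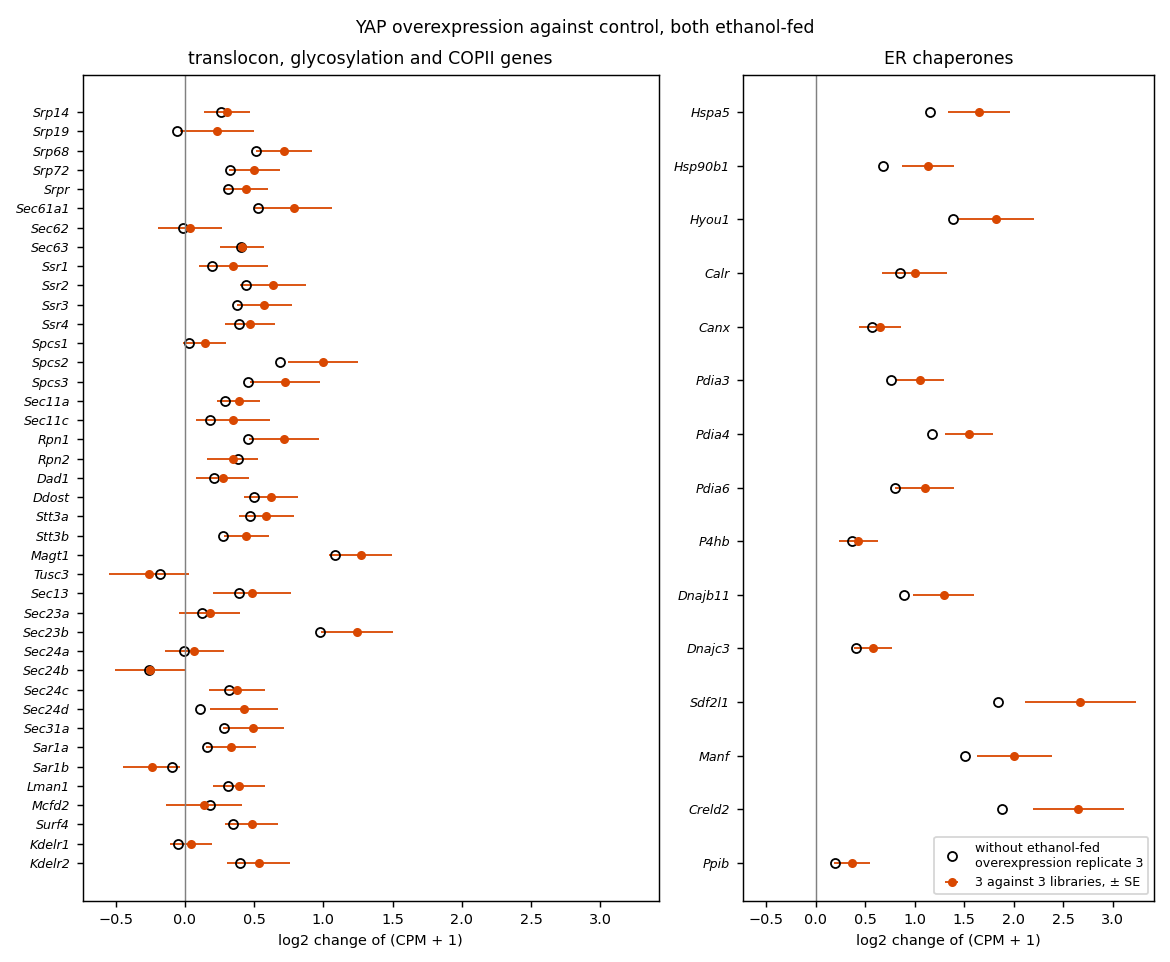
Change in log2(CPM + 1) from ethanol-fed control to ethanol-fed overexpression libraries, with SE bars from the limma fit, for the 40 machinery genes (left, by role) and 15 ER chaperones (right). Filled points use all 3 overexpression libraries and open circles leave out replicate 3. Magt1 (1.27) and Sec23b (1.24) are the farthest right of the machinery, within the range of the chaperones, and Tusc3, Sec24b and Sar1b lie left of 0.

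The shift was not equal in the 3 overexpression libraries. Set against the mean of the ethanol-fed controls, the median of the 40 genes was 0.32, 0.31 and 0.68 in overexpression replicates 1, 2 and 3, and that of the chaperones 0.96, 0.78 and 2.04. Replicate 3 was the highest of all 18 libraries for 25 of the 40 genes, while it was so for 6.18% of all genes kept. Hspa5, which encodes the chaperone BiP, was at 1446, 1516 and 4114 CPM in the 3 overexpression libraries and at 673, 722 and 605 CPM in the controls. Yap1 was at 144, 115 and 106 CPM in the same 3 overexpression libraries, lowest in replicate 3. Without replicate 3 the median of the 40 was 0.31 with 33 above 0, that of the chaperones was 0.85 with 15 above 0, and no gene of the panel was called. Of the 40, 7 (17.5%) then had an unadjusted p under 0.05, all higher, where 3.07% of all genes were higher: Magt1, Sec23b, Spcs2, Srp68, Ddost, Stt3a and Sec63. In replicate 3 the pancreatic acinar markers summed to 17.6 CPM, within the range of all libraries (16.6 to 48.3), the B and plasma cell markers to 2.24 CPM (0.189 to 12.1) and the hepatocyte markers to 50784 CPM. Of the 20 genes at an unadjusted p under 0.05 with all libraries, 6 moved by more than 1.5 times without replicate 3. Their differences went to 0.28 for Sec31a, 0.27 for Stt3b, 0.46 for Rpn1 and Spcs3, 0.32 for Srp72 and 0.37 for Ssr3. Other genes given below, such as Sec24d, were not part of this count.

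**Figure D2:**
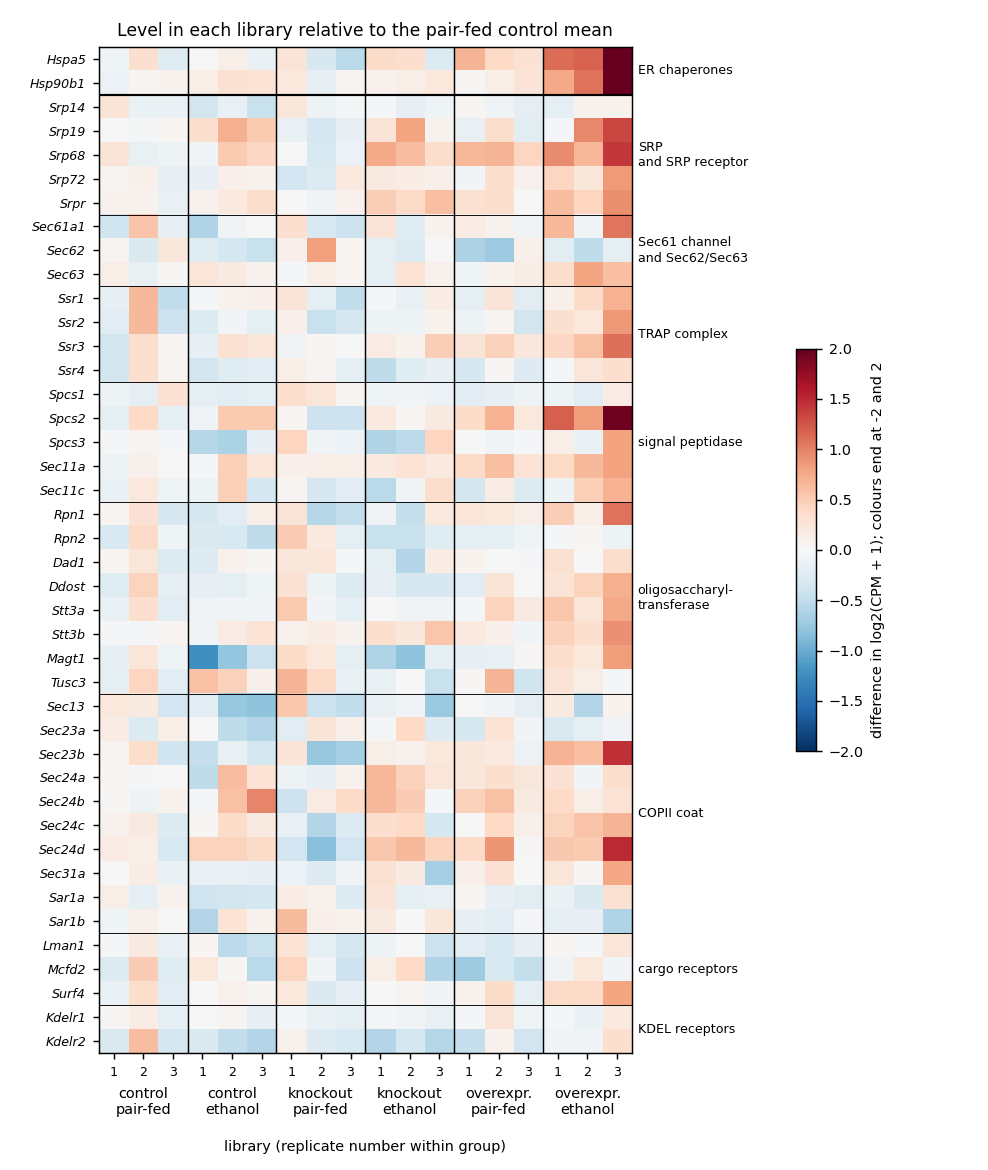
Difference in log2(CPM + 1) of each gene from its mean in pair-fed control libraries, by library (columns, replicates 1 to 3 of the 6 groups) for the chaperones Hspa5 and Hsp90b1 and the 40 machinery genes by role. Colours end at -2 and 2. Red fills most rows of ethanol-fed overexpression replicate 3, and the other 2 libraries of that group are paler.

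SRP and its receptor deliver ribosomes to the ER membrane. Of the 5 genes measured, all were above 0 under overexpression on ethanol, with a median of 0.44. Srp68, a subunit of the SRP core, was at 221, 181 and 305 CPM in ethanol-fed overexpression and at 109, 165 and 152 CPM in ethanol-fed control libraries. The groups did not overlap, and the change of 0.72 ± 0.20 did not pass the test (adjusted p = 0.212). Srpr, the receptor subunit that docks SRP, was at 508, 449.6 and 631 against 353, 382 and 426 CPM, also without overlap (0.44 ± 0.16). Srp72, another subunit of SRP, was at 159, 137 and 214 against 105, 127 and 123 CPM (0.50 ± 0.18). Srp19, which helps to assemble the particle, overlapped between groups at 51.6, 103 and 134 against 65.9, 86.9 and 76.5 CPM, as did Srp14.

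Sec61a1 forms the channel itself, and Sec62 and Sec63 assist it, Sec63 as the partner that recruits BiP. Sec61a1 was at 302, 184 and 402 CPM in ethanol-fed overexpression and 125, 182 and 190.2 CPM in ethanol-fed control libraries (0.78 ± 0.28). Overexpression replicate 2 lay within the controls, so the groups overlapped. Sec63 was at 145, 196 and 173 against 135, 128 and 119.5 CPM, without overlap (0.41 ± 0.16), and here replicate 2 was the highest. Sec62 overlapped, at 42.1, 33.9 and 42.4 against 41.3, 37.9 and 35.6 CPM. The TRAP complex, which sits beside the channel and helps some signal sequences to insert, had all 4 subunits above 0 (median 0.52). Ssr2 was at 291, 268 and 423 against 192, 223 and 205 CPM (0.64 ± 0.24), Ssr3 and Ssr4 did not overlap either, and Ssr1 did.

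Signal peptidase removes the signal sequence, with Sec11a and Sec11c as alternative catalytic subunits and Spcs1, Spcs2 and Spcs3 as the others. Spcs2 was at 406, 317 and 681 CPM in ethanol-fed overexpression and 168, 254 and 256 CPM in ethanol-fed control libraries, with means of 468 ± 189.8 and 226 ± 50.3 CPM (SD, n = 3). All overexpression libraries were above all controls, and the change of 1.00 ± 0.25 missed the threshold (adjusted p = 0.142). Spcs3 was at 85.9, 71.7 and 137 against 52.4, 50.4 and 69.9 CPM, apart by a narrow margin (0.72 ± 0.26). Spcs1 differed by 0.14 ± 0.15, with overlap.

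Oligosaccharyltransferase transfers the preformed glycan, with Stt3a or Stt3b as its catalytic subunit and Magt1 or Tusc3 as the oxidoreductase of Stt3b complexes. Magt1 was at 91.7, 83.1 and 129 CPM in ethanol-fed overexpression and 30.1, 41.9 and 53.1 CPM in ethanol-fed control libraries. The lowest overexpression library lay well above the highest ethanol-fed control, and Magt1 was higher by 1.27 ± 0.23 (adjusted p = 0.0348). Pair-fed control libraries were at 64.4, 85.2 and 67.9 CPM, so overexpression replicate 2 lay within their range. This call was lost in 9 of 18 alternatives, with an adjusted p between 0.00780 and 0.187, and the change stayed between 1.06 and 1.46. It was lost without ethanol-fed control replicate 1 or 2, or without overexpression replicate 1 or 3 (1.08 without replicate 3, adjusted p = 0.187). Its alternative Tusc3, at 9.93, 8.84 and 7.75 against 12.5, 11.4 and 8.68 CPM, was the 1 subunit below 0 (-0.26 ± 0.29).

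The catalytic subunits were both higher without overlap: Stt3a at 167, 134 and 193 against 107, 108 and 109 CPM (0.59 ± 0.20), and Stt3b at 109, 99.1 and 149 against 75.7, 87.7 and 95.1 CPM (0.44 ± 0.16). Ddost, a non-catalytic subunit, was at 196, 219.6 and 266 against 143, 143 and 153 CPM (0.62 ± 0.20). Rpn1, which binds substrates, was at 307, 240.4 and 464 against 175, 186 and 237 CPM (0.71 ± 0.25). For both the groups were apart, for Rpn1 by a narrow margin, and neither passed the test. Rpn2 and Dad1 differed by 0.34 ± 0.18 and 0.27 ± 0.19.

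In the COPII coat the picture was uneven: 8 of 10 genes were above 0, with a median of 0.35. Sec23b, a paralog of the inner-coat subunit that activates Sar1, was at 109.8, 103 and 186 CPM in ethanol-fed overexpression and 48.5, 60.6 and 52.6 CPM in ethanol-fed control libraries. The groups were far apart, and the change of 1.24 ± 0.26 was the second of the 40 in size but was not called (adjusted p = 0.0743). The other paralog, Sec23a, differed by 0.18 ± 0.22, with overlap. The Sec24 paralogs bind cargo. Sec24d was at 140.3, 138 and 272 against 132, 132 and 124 CPM (0.43 ± 0.24), so that only replicate 3 stood far from the controls. Sec24c differed by 0.37 ± 0.20, Sec24a by 0.07 ± 0.21 and Sec24b by -0.25 ± 0.25. Sec31a of the outer cage was at 260.2, 223 and 376 against 199.5, 200.1 and 195 CPM (0.49 ± 0.22). Of the GTPases, Sar1a differed by 0.33 ± 0.18 and Sar1b, which serves lipoprotein export, by -0.24 ± 0.21. Without replicate 3 the median of the coat was 0.14, where those of the other roles were between 0.17 and 0.42.

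The cargo receptors were above 0 in all 3 cases. Surf4, a receptor for lipoproteins among other cargo, was at 563, 562 and 744 against 433, 458 and 435 CPM, without overlap (0.48 ± 0.19). Lman1 and its partner Mcfd2, which carry coagulation factors V and VIII, differed by 0.39 ± 0.19 and 0.14 ± 0.27, both with overlap. Of the KDEL receptors, Kdelr2 was at 142, 140.0 and 186 against 119.7, 104 and 96.8 CPM, without overlap (0.53 ± 0.23), and Kdelr1 overlapped at 145, 135 and 170.3 against 148, 154 and 133 CPM.

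**Figure D3:**
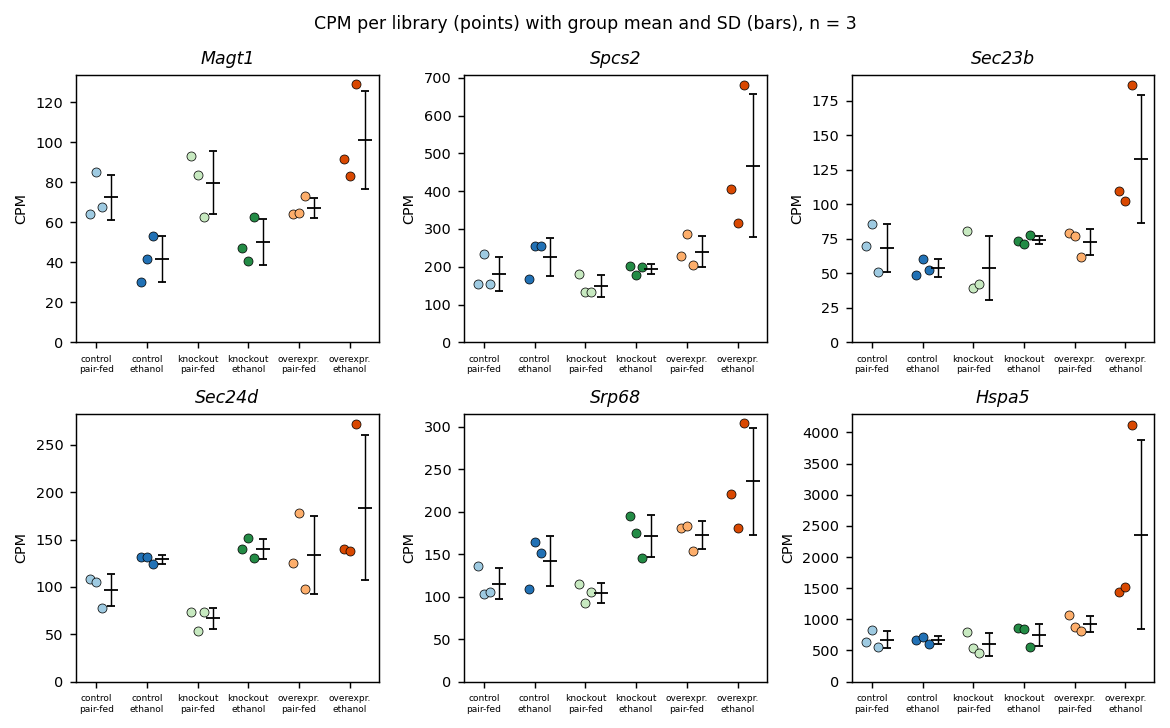
CPM of Magt1, Spcs2, Sec23b, Sec24d, Srp68 and the chaperone Hspa5 in each library of the 6 groups, on linear axes from 0, with the mean and SD of 3 libraries. Magt1 of ethanol-fed overexpression libraries (83.1 to 129 CPM) lies above that of ethanol-fed controls (30.1 to 53.1 CPM), and 1 overexpression library stands high in the panels of Spcs2, Sec23b, Sec24d and Hspa5.

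Of the 15 ER chaperones, 4 rose in the same comparison. Pdia4, a disulfide isomerase, rose by 1.55 ± 0.24 (adjusted p = 0.0153), Creld2 by 2.65 ± 0.46 (0.0336), Manf by 2.01 ± 0.38 (0.0460) and Hspa5 by 1.65 ± 0.31 (0.0467). None of them was called without overexpression replicate 3, where their differences lay between 1.15 and 1.88. No gene of the wider pathway lists other than the chaperones was called. The median was 0.29 for 27 genes of N-glycan precursor synthesis and other subunits of the transferase. It was 0.46 for 11 genes of glycan trimming, a list that shares Canx and Calr with the chaperones. It was 0.40 for 11 genes of COPI retrieval and 0.20 for 26 further genes of COPII assembly and cargo selection. Another 20 genes of translocation, such as the ER membrane complex, had a median of 0.01 with 11 above 0. For 9 sensors and regulators of the unfolded protein response the median was 0.19, and for 17 secreted plasma proteins, cargo of this route, it was -0.04 with 8 above 0.

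**Figure D4:**
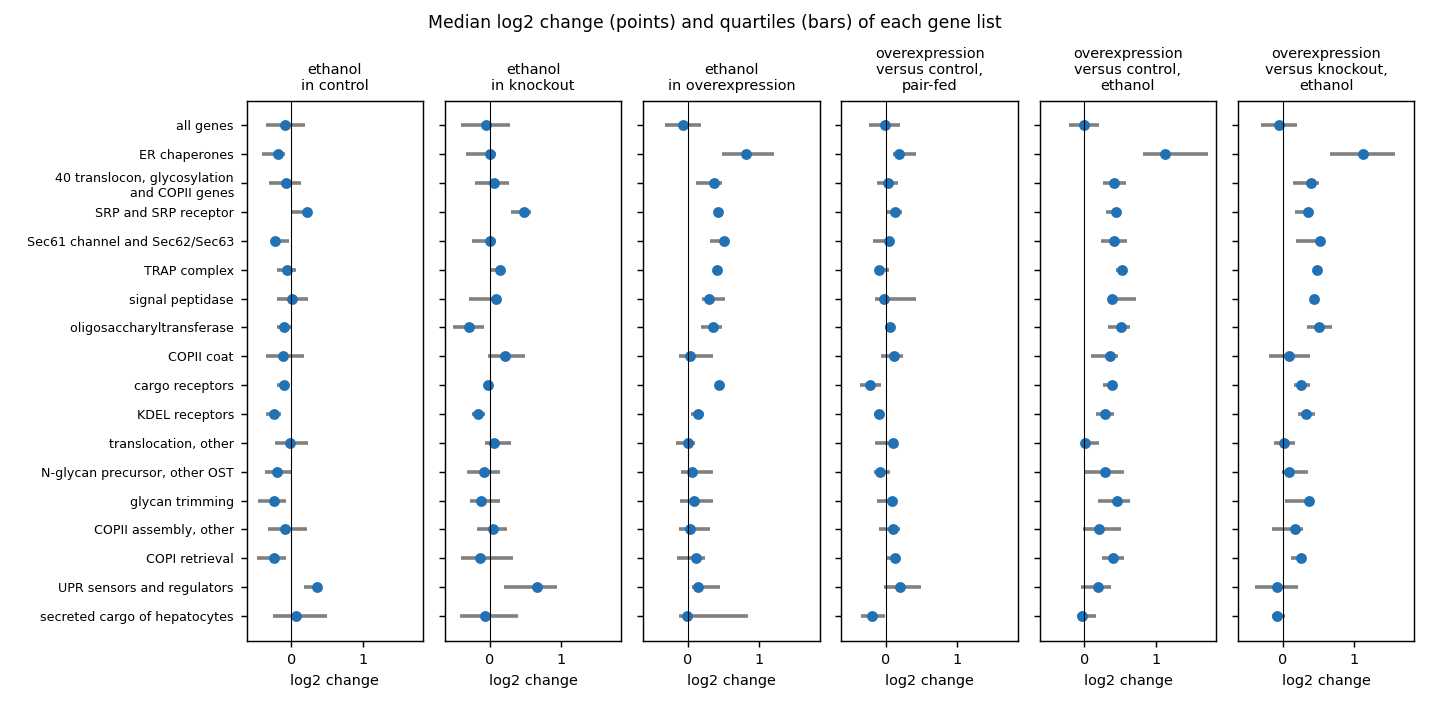
Median (points) and quartiles (bars) of the log2 change of each gene list in 6 comparisons, one per column. In the column of overexpression against control on ethanol the 40 genes have a median of 0.42 and the ER chaperones 1.13, and in that of ethanol in control mice -0.07 and -0.18.

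Against ethanol-fed knockout libraries, which form a second reference for the same 3 overexpression libraries, the machinery was also higher. The median was 0.40 with 34 of 40 above 0, against -0.05 and 45% over all genes, and it was 0.24 with 31 above 0 without overexpression replicate 3. Magt1 and Spcs2 rose and no gene of the 40 fell, where 1.88% of all genes were called and 0.529% were called higher. Spcs2 was at 203, 179 and 199.8 CPM in the knockout libraries, all below the 3 overexpression libraries given above (1.19 ± 0.25, adjusted p = 0.0180). Magt1 was at 47.3, 40.6 and 62.7 CPM there, again without overlap (0.99 ± 0.23, adjusted p = 0.0276). Ddost came next, at 145, 129.7 and 129 CPM in the knockout libraries (0.74 ± 0.20, adjusted p = 0.0573). Of the 40, 16 were higher (5.86% of all genes) and 1 was lower (9.53%) at an unadjusted p under 0.05. Groups were apart upward for 14 genes (8.94% of all) and downward for 1 (12.5%). That gene was Sar1b, at 382, 338 and 394 CPM in knockout and 297, 299.5 and 221 CPM in overexpression libraries (-0.46 ± 0.21, adjusted p = 0.292).

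Both calls were lost when single libraries were left out. Without overexpression replicate 3 the change of Spcs2 was 0.88 (adjusted p = 0.0904) and that of Magt1 0.81 (adjusted p = 0.136). Neither was called without ethanol-fed knockout replicate 1 or 2, and without overexpression replicate 1 only Spcs2 was. The median of the 15 chaperones was 1.13, with 7 that rose: Creld2, Hspa5, Hsp90b1, Manf, Pdia3, Pdia4 and Sdf2l1. Without overexpression replicate 3 the median was 0.77, and of the 15 only Pdia4 and Creld2 were called. Tmed3, a p24-family cargo receptor, also rose (1.31 ± 0.32, adjusted p = 0.0408), a call lost without that replicate (1.00, adjusted p = 0.189). Kupffer cell and macrophage markers summed to 151 to 195 CPM in ethanol-fed knockout and 340 to 371 CPM in ethanol-fed overexpression libraries, with all 7 apart, while hepatocyte markers were lower in the overexpression libraries (50931 to 64850 CPM in knockout). The part of either in these differences was not tested.

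Within overexpression mice, ethanol raised no gene of the 40 past the threshold, where 1.15% of all genes were called, and edgeR called none. The median change from pair-fed to ethanol-fed libraries was 0.37 with 34 above 0, against -0.07 and 42.4% over all genes. At an unadjusted p under 0.05, 10 genes were higher (4.87% of all) and 0 lower (9.67%). Groups were apart upward for 12 (7.83%) and downward for 0 (14.6%). Spcs2 was at 229, 286 and 205 CPM in pair-fed overexpression libraries, below all 3 fed ethanol (0.90 ± 0.25, adjusted p = 0.0830). Sec23b was at 79.1, 76.9 and 61.6 CPM there, also without overlap (0.82 ± 0.26, adjusted p = 0.130), and Srp19, with overlap, at 47.5, 67.5 and 45.3 CPM (0.75 ± 0.26). The COPII coat as a whole had a median of 0.02 with 5 of 10 above 0. Without replicate 3 of the ethanol-fed libraries the median of the 40 was 0.20, with 32 above 0, and 2 (5%) were higher at an unadjusted p under 0.05, where 2.96% of all genes were. Without it the difference of Spcs2 was 0.59 and that of Srp19 0.47. The chaperones had a median of 0.81, or 0.53 without that replicate, and Hsp90b1 rose (1.23 ± 0.26, adjusted p = 0.0279), a call lost without it (0.78, adjusted p = 0.0716). This comparison and those with ethanol-fed control or knockout mice share the same 3 ethanol-fed overexpression libraries. Its pair-fed replicate 1 had Yap1 within the controls (57.6 CPM).

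In control mice no gene of the machinery passed the test under ethanol. The median was -0.07 with 17 of 40 above 0, next to -0.09 and 41.3% over all genes, and the chaperones had a median of -0.18. Of all genes 2.7% were called, 1.02% higher and 1.67% lower. At an unadjusted p under 0.05, 2 of the 40 were lower (11.8% of all) and 0 higher (6.26%), and edgeR called none. Groups were apart upward for 3 of the 40 (7.69% of all) and downward for 5 (14.4%). Magt1 was at 64.4, 85.2 and 67.9 CPM in pair-fed and 30.1, 41.9 and 53.1 CPM in ethanol-fed control libraries, with every ethanol-fed library below every pair-fed one (-0.81 ± 0.23, adjusted p = 0.0619). It was called without ethanol-fed control replicate 3. Sec13 of the outer cage was at 58.1, 56.4 and 37.9 CPM in pair-fed and 42.4, 29.0 and 28.3 CPM in ethanol-fed libraries, with overlap (-0.60 ± 0.28). Among the wider lists Xbp1 rose (0.93 ± 0.15, adjusted p = 0.00402) and Lman2, a lectin cargo receptor, fell (-0.74 ± 0.17, adjusted p = 0.0261). Pair-fed control replicates 2 and 3 had Xist and the ethanol-fed ones Ddx3y. A term for these genes thus sets the ethanol-fed libraries against pair-fed replicate 1 alone. With a term for these genes in the fit, 23 genes of the panel were called for this comparison, from 316.

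From pair-fed to ethanol-fed knockout libraries, which also differed in sex chromosome genes, 2 of the 40 (5%) were called. Both were higher, where 9.9% of all genes were called, 4.1% higher and 5.79% lower. Sec24d was at 73.6, 53.4 and 73.2 CPM in pair-fed and 139.6, 151 and 131 CPM in ethanol-fed libraries and rose by 1.08 ± 0.24 (adjusted p = 0.00985). Srp68 was at 115, 92.5 and 105 CPM in pair-fed and 195, 175 and 145 CPM in ethanol-fed libraries and rose by 0.71 ± 0.20 (adjusted p = 0.0315). Neither gene had overlapping groups. Kupffer cell and macrophage markers summed to 430 to 532 CPM in pair-fed and 151 to 195 CPM in ethanol-fed knockout libraries, with all 7 lower without overlap, and their part in these changes was not tested. Short of the threshold, Srpr was higher (0.48 ± 0.16, adjusted p = 0.0610). Rpn2, a transferase subunit, was lower (-0.55 ± 0.18, adjusted p = 0.0644), as was Magt1 (-0.66 ± 0.23, adjusted p = 0.0688). The median over the 40 was 0.06 with 22 above 0 (45.6% of all genes), so the calls stood beside an even spread of the others. The chaperones had a median of 0.00 and 0 calls, while Atf6 rose (0.94 ± 0.18, adjusted p = 0.00277) and so did Xbp1 (1.16 ± 0.15) and Sec22b, a SNARE of ER to Golgi transport (1.29 ± 0.26).

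All 3 pair-fed knockout libraries had Xist and all 3 ethanol-fed ones had Ddx3y, and with a term for these genes in the fit Sec24d (0.82, adjusted p = 0.727) and Srp68 (0.33, adjusted p = 0.902) were not called, nor was any gene of the panel. The difference of Rpn2 went to -0.09 with that term and that of Magt1 to -0.43. That term is estimated from pair-fed control replicate 1 against replicates 2 and 3 alone. Calls lost with it therefore do not tell diet from sex chromosome genes. In pair-fed control mice Sec24d was at 108, 105 and 77.6 CPM and Srp68 at 136, 103 and 106 CPM, the first library of each with Ddx3y and the others with Xist. No gene of the 40 was called without pair-fed knockout replicate 2, Sec24d alone was called without ethanol-fed replicate 1 or 2, and 4 were called without ethanol-fed replicate 3 (Magt1, Sec24c, Sec24d and Srp68). In ethanol-fed knockout libraries Ddit3, a stress-induced factor, was at 126, 153 and 6.71 CPM, so that replicate 3 stood apart from the others.

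Averaged over the 3 genotypes, 7 of the 40 were called higher on ethanol and none lower, where 7.21% of all genes were called higher and 13.3% lower. The 7 were Sec24d (0.64 ± 0.14, adjusted p = 0.00364), Srp19 (0.62 ± 0.15, adjusted p = 0.00772), Spcs2 (0.54 ± 0.14, adjusted p = 0.0129), Srp68 (0.47 ± 0.12), Srpr (0.38 ± 0.09), Sec24c (0.35 ± 0.12) and Stt3b (0.30 ± 0.09). Of the 5 measured genes of SRP and its receptor 3 were among them, and the median over the 40 was 0.13 with 24 above 0, against -0.07 and 41.9% over all genes. Srp19 was at 52.2, 51.6 and 54.3 CPM in pair-fed and 65.9, 86.9 and 76.5 CPM in ethanol-fed control libraries. It was at 47.4, 41.7 and 47.0 and 63.0, 91.7 and 55.7 CPM in knockout libraries, so that it was higher on ethanol without overlap in both. With the term for sex chromosome genes none of the 7 was called, and the change of Srp19 was 0.63 and that of Spcs2 0.70, as large as without the term. That of Srp68 went from 0.47 to 0.26 with the term. Since the term leans on pair-fed control replicate 1, lost calls and kept sizes do not tell diet from sex chromosome genes. Of 29 alternatives 12 ended the call of Sec24c and 8 that of Stt3b, most by leaving out 1 library, while only the sex chromosome term ended those of the other 5. Of the chaperones only Hsp90b1 rose (0.53 ± 0.15, adjusted p = 0.0185).

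Loss of Yap alone went with no called change in the machinery. In pair-fed mice the median from control to knockout was -0.02 with 16 of 40 above 0 (53.2% of all genes), and 0 were called, where 0.00853% of all genes were. At an unadjusted p under 0.05, 0 were higher (1.72% of all) and 1 was lower (1.41%), and groups were apart upward for 1 (3.84%) and downward for 2 (3.22%). The gene with that p was Sec24d, lower in all 3 knockout libraries (-0.53 ± 0.24, unadjusted p = 0.0420, adjusted p = 0.999), again with the difference in Xist. On ethanol the median was 0.10 with 24 above 0 (57.4% of all), and 0 were called, where 0.0171% of all genes were. On that diet 0 of the 40 were higher (5.35% of all) and 0 lower (2.99%) at an unadjusted p under 0.05. Groups were apart upward for 5 (8.23%) and downward for 1 (5.21%), and edgeR called none on either diet. The largest differences on ethanol were those of Tusc3, at 7.14, 7.98 and 5.62 CPM in knockout and 12.5, 11.4 and 8.68 CPM in control libraries (-0.58 ± 0.29), and Sec23b, at 73.3, 71.4 and 77.6 against 48.5, 60.6 and 52.6 CPM (0.46 ± 0.26). Sec23a came next, at 39.4, 53.1 and 33.4 against 40.4, 27.8 and 26.2 CPM (0.40 ± 0.22).

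Overexpression in pair-fed mice, where replicate 1 had Yap1 within the controls (57.6 CPM), went with no called change either. The median was 0.03 with 22 above 0 (48.1% of all), and 0 were called, where 0.145% of all genes were (0.0597% higher and 0.0853% lower), and edgeR called none. At an unadjusted p under 0.05, 2 were higher (4.21%) and 0 lower (4.25%). Srp68 was at 181, 183 and 153 CPM in pair-fed overexpression libraries, all above the pair-fed controls (0.59 ± 0.20, adjusted p = 0.380). Xist was present in control replicates 2 and 3 and at most 0.183 CPM in overexpression libraries, and with the term for sex chromosome genes that difference was 0.33. Sec11a, at 169, 196 and 156 against 119.5, 139 and 129 CPM, was likewise apart (0.42 ± 0.16, adjusted p = 0.439). Mcfd2 was lower at 123, 163 and 144 against 167, 286 and 171 CPM (-0.50 ± 0.27), and Sec24d, at 125, 178 and 97.7 CPM, overlapped the controls (0.43 ± 0.24). With that term they were at -0.23 and 0.26. The chaperones had a median of 0.19 with 12 of 15 above 0.

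Whether the response to ethanol depended on genotype was tested by the interaction. For overexpression the median over the 40 was 0.39 with 33 above 0, against 0.02 and 52.3% over all genes, and that of the chaperones 1.10. No gene of the 40 was called, and no gene of the panel was (0%). At an unadjusted p under 0.05, 8 of the 40 had a higher response in overexpression mice (3.34% of all genes): Magt1, Sec23b, Ssr2, Ssr4, Spcs3, Ddost, Lman1 and Kdelr2. Without ethanol-fed overexpression replicate 3 the median was 0.26 with 32 above 0, and that of the chaperones 0.70. Then 3 of the 40 (7.5%) were higher at that p, where 2.70% of all genes were. Pair-fed control replicates 2 and 3 had Xist. With the term for sex chromosome genes Ssr4 went from 0.65 to 0.28, Ddost from 0.61 to 0.37 and Kdelr2 from 0.78 to 0.49. For Magt1 the interaction was 1.37 ± 0.32 (unadjusted p = 0.000411, adjusted p = 0.195), with ethanol-fed libraries below pair-fed in control and above in overexpression mice. For knockout the median was 0.12 with 28 above 0 (53.7% of all), 1 gene was higher (3.16% of all) and 1 lower (2.53%) at an unadjusted p under 0.05 (Sec23b, 0.84 ± 0.37, and Tusc3, -0.88 ± 0.41), and again no gene of the panel was called (0%).

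Whether the machinery followed the chaperones from library to library was asked with the 18 deviations from the group means. Pearson's correlation with Hspa5 was above 0 for 35 of the 40 genes, with a median of 0.44 (from -0.16 to 0.79), and 0 passed an adjusted p of 0.05 over the 40 correlations in an exact permutation within groups. Unadjusted, 13 (all above 0) had an exact permutation p under 0.05 by Pearson's r and 12 by Spearman's rho. Over the 11719 genes kept besides Hspa5, 58.2% were above 0 with a median of 0.07, and 9.57% had such a p by r (6.22% with r above 0) and 9.81% by rho. The closest was Sec23b (r = 0.79, exact permutation p = 0.00840, adjusted p = 0.109, rho = 0.74, exact permutation p = 0.00853, adjusted p = 0.0853). The next were Sec31a (r = 0.73), Spcs2 (0.70), Surf4 (0.70), Sec24d (0.69) and Kdelr1 (0.69), and 5 genes were below 0 (Sec62, Sec63, Sar1b, Sec24b and Sec23a). Magt1, the gene called above, was at 0.37. Without the 2 libraries farthest from the median of Hspa5 (ethanol-fed overexpression replicate 3 and pair-fed knockout replicate 1) the median was 0.22 with 27 above 0 (0.06 and 56.3% over all genes). Then 2 of the 40 had an unadjusted exact permutation p under 0.05 by r, where 5.59% of all genes did. Left out 1 at a time, the overexpression library gave a median of 0.33 and the knockout library 0.48. Both were picked for their deviation in Hspa5, which narrows its range, so the fall without them was in part fixed by that choice. All libraries share the scaling to the library total, and genes are not independent of each other.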

How the data were processed

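Liver RNA was read by the authors with the Ion AmpliSeq mouse transcriptome panel, and the vendor's program was ampliSeqRNA 5.10.1.2, per the file headers. The deposited series table holds CPM, which 100% of values turned into whole reads within 0.02 reads, and the deposited per-library files hold log2(RPM + 1) of the same values, per the file headers. The sources used here give no aligner and no genome build. Scaling is to library total alone, so a few abundant genes can shift all others.

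Genes with at least 1 CPM in 3 libraries were kept (11720), and log2(CPM + 1) was fitted with limma 3.58.1 (lmFit, eBayes with trend, R 4.3.3), with 1 mean per group over 18 libraries (12 residual degrees of freedom) and 11 contrasts. Tests were two-sided, with Benjamini-Hochberg adjustment over all genes kept. The scripts were tested on simulated data.

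The 40 genes, the pathway lists and the tests were chosen with earlier results of these data known. By rule any of the 40 could be named, with values by library foremost for those called or among the 3 largest differences in a comparison, and from each other list the 3 with the smallest adjusted p. Further members described by library, list members beyond 3 and the promoters of Hspa5, Creld2 and Sec23a were chosen after their values or sequences were seen. Correlations with Hspa5 used deviations from group means and 46656 exact permutations within groups. Alternatives were TMM factors, quantiles, array weights, other filters, pseudocounts of 10 and 0.1, blocks for replicate number and barcode range, a term for Xist above Ddx3y, only the groups compared, edgeR 4.0.16 on the recovered reads, and each library left out. Same-numbered libraries of different groups deviated together little (median correlation 0.029, 6 of 45 pairs over 0.1). For different numbers the median was -0.007, with 8 of 90 pairs over 0.1. With 3 libraries a group this cannot exclude a pairing, and the main fit used none.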

Additional observations from a re-analysis of the deposited data

Results flagged for a closer look

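For Magt1 the difference between ethanol-fed and pair-fed libraries had opposite signs in 2 genotypes. All 3 ethanol-fed control libraries were below all pair-fed ones (-0.81 ± 0.23), and all 3 ethanol-fed overexpression libraries were above all pair-fed ones (0.56 ± 0.23). The interaction was 1.37 ± 0.32 (limma, unadjusted p = 0.000411), which did not pass the adjusted threshold (adjusted p = 0.195). Magt1 lies on the X chromosome, and it was at 64.4 CPM in the pair-fed control library with Ddx3y and at 85.2 and 67.9 CPM in those with Xist. The term for sex chromosome genes was 1 of 24 alternatives, over which the interaction stayed between 1.16 and 1.56. That term leans on the 1 pair-fed control library with Ddx3y, and the part of these genes was not tested beyond that.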

How the results depend on the processing

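Of 92 results for single genes, 0 of 1865 alternatives turned a sign. These results were picked from the same data as called, at an unadjusted p under 0.05 or among the largest differences. That choice largely fixed their signs, so the count does not test stability. Signs outside the 92 did turn. For overexpression against control on ethanol, 37 of the 40 genes were above 0, and 33 when 1 ethanol-fed overexpression library, the highest for Hspa5, was left out. Of 293 alternatives of the 12 called results for single genes, 48 ended the call, and 36 alternatives made a call of others. The number of the 40 genes called moved as follows. Array weights gave 1 for ethanol in control (0 as reported), 7 in knockout (2), 2 in overexpression (0), 2 for overexpression against control on ethanol (1) and 9 against knockout (2). With the term for sex chromosome genes, 0 were called for ethanol in knockout (2) and averaged (7), and TMM factors gave 11 for the average. For overexpression against control on ethanol (1), 0 were called with no filter, with quantile normalization, with a barcode range block and with only the groups compared. Leaving out 1 library gave 0 to 1 for ethanol in control, 0 to 4 in knockout, 0 to 1 in overexpression, 0 to 1 and 0 to 2 for overexpression against control and knockout on ethanol, and 0 to 7 for genes correlated with Hspa5 (7 without pair-fed overexpression replicate 1, 1 without replicate 2). It gave 5 to 8 for the average over genotypes (7). In the other comparisons the counts of the 40 genes moved by no more than 1.5 times. The cause of these moves was not tested.

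The replicate block, for which no pairing was established, called 0 of the 40 for overexpression against control on ethanol (Magt1 adjusted p = 0.0556). It changed no other count of the 40 genes called.

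Over all genes, the calls ranged over all settings, single libraries left out included, from 0 to 71 for overexpression against control on ethanol (12 as reported), from 83 to 766 against knockout (220) and from 1 to 86 in pair-fed mice (17, or 29 with edgeR). They ranged from 23 to 537 for ethanol in control (316), from 0 to 2235 in knockout (1160), from 17 to 505 in overexpression (135), from 86 to 3310 averaged (2406), and from 1 to 105 for knockout against control on ethanol (2). With 1 library left out, up to 27 were called for the interaction with overexpression and up to 3 for that with knockout (0 as reported). TMM factors turned the split of ethanol calls toward higher ones, from 120 of 316 to 172 of 292 in control, from 481 of 1160 to 687 of 1254 in knockout, from 47 of 135 to 78 of 129 in overexpression and from 845 of 2406 to 1300 of 2408 averaged. For overexpression against knockout on ethanol they moved it from 62 of 220 to 90 of 230. The edgeR test on recovered reads called Magt1 for overexpression against control on ethanol, and Ddost, Magt1 and Spcs2 against knockout. With 31 reads or more for each of the 40 genes in each library, counting error limits the least covered most, and 3 libraries a group limit all comparisons.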

Other observations

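Averaged over genotypes, genes around the machinery differed between diets in both directions (log2 change ± SE and limma adjusted p in parentheses). The transport genes Sec22b (0.77 ± 0.15, 0.00141), Tmed9 (0.63 ± 0.15, 0.00505) and Tmed4 (0.29 ± 0.10, 0.0399) rose. The lectin cargo receptors Lman2 (-0.41 ± 0.10, 0.00780) and Lman2l (-0.50 ± 0.13, 0.00876) fell, as did the COPI coat genes Copg2 (-0.54 ± 0.13, 0.00559), Cope (-0.44 ± 0.12, 0.0126) and Copa (-0.38 ± 0.11, 0.0192). Of the enzymes that build or trim the glycan, Alg2 (0.49 ± 0.14, 0.0180) rose, while Alg6 (-0.58 ± 0.15, 0.0122), Alg11 (-0.37 ± 0.11, 0.0197) and the mannosidase Man1b1 (-0.58 ± 0.14, 0.00518) fell. Among secreted products the fibrinogen chains Fgg (1.24 ± 0.20, 0.000392), Fgb (1.03 ± 0.19, 0.00101) and Fga (1.00 ± 0.19, 0.00130) rose with Hp (0.99 ± 0.17, 0.000493), and F8 (-0.54 ± 0.15, 0.0177) and Ttr (-0.42 ± 0.12, 0.0177) fell. With TMM factors Copa (0.0523), Alg11 (0.0565) and Ttr (0.0697) missed the threshold. With the term for sex chromosome genes, which leans on pair-fed control replicate 1, none of those named so far was called. Of the wider pathway genes called for this average, Xbp1, a transcription factor of the unfolded protein response, alone was called with that term too (0.99 ± 0.09 without it, 0.84 with it, adjusted p = 0.0142).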
